A study of Mus musculus with 20 samples.

Results

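Cholesterol and fatty acid synthesis were followed through 31 genes in the left ventricular free wall of male C57BL/6 mice aged about 9 to 13 weeks. The members were given as a list of symbols, and each had 1 line in the count tables, out of 24059 genes in all. By role, 4 are regulators (Srebf1, Srebf2, Insig1 and Insig2), 16 belong to the sterol arm and 11 to the fatty acid and phospholipid arm. In CardioGRKO mice both floxed Nr3c1, which encodes the glucocorticoid receptor, and Cre recombinase are present, the Cre being driven by the promoter of the alpha myosin heavy chain, which is active in cardiomyocytes. GRflox mice, their littermates, have the floxed gene without the Cre, so loss of the receptor and presence of Cre cannot be told apart here. Each genotype was sampled at ZT12 and at ZT0 (zeitgeber time; the onset of the dark and of the light phase), which gave 4 groups of 5 libraries of poly(A)-enriched RNA. The series title names the receptor of cardiomyocytes and transcriptional rhythms in the heart as the subject.

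Sterols and fatty acids are both built from cytosolic acetyl-CoA, sterols through mevalonate and squalene and fatty acids through malonyl-CoA. The SREBP proteins, made from Srebf1 and Srebf2, are held in the membrane of the endoplasmic reticulum by Insig proteins while sterols are plentiful. When sterols run low they are cut, and the released fragment enters the nucleus and switches on these genes, SREBP2 mainly those of sterol synthesis and SREBP1 mainly those of fatty acid synthesis. The adult heart is known for taking up fatty acids from the blood and burning them, not for making them.

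The libraries held 5854462 to 37648421 counted reads, with a median of 23223656. CardioGRKO replicate 1 at ZT0 had the fewest reads, and the header of its deposited table differs from the other 19 in a number that no source used here explains. Results that change without it are named below. Nr3c1 averaged 55.2 CPM in CardioGRKO and 115 CPM in GRflox at ZT0, and 51.0 CPM in CardioGRKO against 107 CPM in GRflox at ZT12, where CPM is the read count scaled to a common library total with TMM factors. The 8 cardiomyocyte markers examined together reached between 88171 and 109163 CPM in every library. The 8 adipocyte-restricted genes examined (Adipoq, Plin1, Cidec, Cfd, Lep, Retn, Adig and Ucp1) summed to 1.59 ± 0.43 CPM in CardioGRKO and 3.02 ± 1.07 CPM in GRflox at ZT0, and to 2.42 ± 0.40 CPM in CardioGRKO and 5.13 ± 2.87 CPM in GRflox at ZT12 (SD, n = 5 each). Single libraries overlapped between genotypes, with 1.13 to 2.18 CPM in CardioGRKO and 1.89 to 4.29 CPM in GRflox at ZT0. At ZT12 they had 1.91 to 2.85 CPM in CardioGRKO and 1.44 to 8.71 CPM in GRflox. Ucp1 was at 0 in all 10 CardioGRKO libraries. This sum was taken over part of a list of 12 adipocyte markers, and Cidea, Lipe and Pnpla2 are among those left out. Cidea was called higher in CardioGRKO at both times, and Lipe and Pnpla2 lower. The 8 adipocyte markers tested further below are a different set. The labels number the replicates but do not name animals, so p-values measure the spread between libraries, which may be technical.

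The 250 bases before the annotated start of 4 members are shown because these genes carry the genotype and time differences described below and differ in the promoter letters of the pathway. They are RefSeq sequences of the build GRCm38.p6, written 5′ to 3′ on the gene's strand, for Cyp51 (chr5:4104698-4104947, minus strand), Insig1 (chr5:28071162-28071411, plus strand), Hmgcs1 (chr13:119690101-119690350, plus strand) and Agpat2 (chr2:26604418-26604667, minus strand). Capitals mark CCAAT (or ATTGG, the same letters on the other strand), the E-box letters CACGTG, and TCACNCCAC, a consensus of the sterol regulatory element.
Cyp51: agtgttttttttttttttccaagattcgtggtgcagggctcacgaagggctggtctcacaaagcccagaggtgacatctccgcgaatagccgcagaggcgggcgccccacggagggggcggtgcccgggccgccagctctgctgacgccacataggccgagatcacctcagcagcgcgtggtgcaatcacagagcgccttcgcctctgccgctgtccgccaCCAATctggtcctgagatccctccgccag
Insig1: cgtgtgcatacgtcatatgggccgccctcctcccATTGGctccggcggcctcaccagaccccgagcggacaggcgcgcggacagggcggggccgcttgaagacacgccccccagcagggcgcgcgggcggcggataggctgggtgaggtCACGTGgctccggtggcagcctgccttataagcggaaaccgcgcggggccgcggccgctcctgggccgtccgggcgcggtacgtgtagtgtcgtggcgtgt
Hmgcs1: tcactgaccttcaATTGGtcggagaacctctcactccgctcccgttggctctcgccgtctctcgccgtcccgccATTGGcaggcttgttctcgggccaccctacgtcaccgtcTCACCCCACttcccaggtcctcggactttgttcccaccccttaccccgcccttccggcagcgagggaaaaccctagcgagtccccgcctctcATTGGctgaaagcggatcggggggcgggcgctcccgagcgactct
Agpat2: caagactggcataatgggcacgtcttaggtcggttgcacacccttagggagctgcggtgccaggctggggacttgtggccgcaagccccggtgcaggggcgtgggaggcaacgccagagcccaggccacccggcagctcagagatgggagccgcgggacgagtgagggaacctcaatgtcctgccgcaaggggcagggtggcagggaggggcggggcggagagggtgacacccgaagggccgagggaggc
CCAAT starts 29 bases before the start of Cyp51, CACGTG 101 bases before that of Insig1 and TCACCCCAC 137 bases before that of Hmgcs1. In the stretch of Agpat2 none of these letters occur.

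Promoter windows of 300 bases, from 250 before to 50 after an annotated start, were on hand for 25 of the 31 members (34 windows). Both strands were searched. CCAAT, bound by the factor NF-Y, which is known to work beside SREBP, was found in 61.8% of the members' windows (21 of 34) and in 37.4% of all 32851 windows. It occurred in 11 of 15 windows of sterol genes and in 5 of 11 windows of fatty acid and phospholipid genes. TCACNCCAC was found in 1 of the 34 windows, that of Hmgcs1 (2.94%), and in 1.24% of all windows. Its shorter core CACCCCAC, which overlaps it, was found in 3 of the 34 (8.82%; Hmgcs1, Acat2 and Gpam) and in 2.87% of all windows. CACGTG, bound by clock proteins and by upstream stimulatory factors, was found in 5 of the 34 (14.7%; Insig1, Hsd17b7, Dhcr7, Sc5d and Elovl5) and in 7.15% of all windows. No member's window held TTATGTAA or TTACATAA, the D-box letters, which occur in 0.938% of all windows. AGAACA followed after 3 bases by TGTTCT, a full glucocorticoid response element, was in no member's window and in 0.00913% of all.

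Per kilobase of exon, Gpam, the mitochondrial glycerol-3-phosphate acyltransferase that starts triglyceride and phospholipid synthesis, was the highest member at 47.4 CPM per kb over the 20 libraries. Agpat2 and Agpat3, acyltransferases of the next step, followed with 40.9 and 28.8 CPM per kb. Their ranges over the libraries overlapped, since the lowest library had 31.5 CPM per kb of Agpat2 and the highest had 37.7 CPM per kb of Agpat3. The highest sterol genes were Hmgcs1, the cytosolic HMG-CoA synthase, at 15.6 CPM per kb and Fdft1, the squalene synthase, at 13.5 CPM per kb. At the low end were Stard4 with 0.798, Idi1 with 0.608, Sqle with 0.535, Lss with 0.443 and Elovl6 with 0.224 CPM per kb. All 31 members passed the filter on low counts, with as few as 7 counts for Sqle in its lowest library.

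The comparison of genotypes at ZT0 asks how synthesis genes stood at ZT0 in hearts with the Cre, in which Nr3c1 was lower. In CardioGRKO against GRflox 7 of the 31 members passed the test (edgeR adjusted p under 0.05), which is 22.6%, beside 14.7% of the 14007 genes tested. Of these, 3 rose (Insig1, Cyp51 and Pmvk), beside 7.36% of all genes higher. The 4 that fell were Srebf1, Acaca, Scd1 and Agpat3, beside 7.35% of all genes lower. The ranges of the 5 and 5 libraries did not overlap for 6 members (19.4%), against 11.9% of all genes. Without the shallowest library, CardioGRKO replicate 1, 5 members passed, and Pmvk (0.21, adjusted p = 0.0651) and Scd1 (-0.42, adjusted p = 0.0573) did not.

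At ZT12 5 of the 31 members (16.1%) passed between genotypes, beside 21.1% of all genes. Of these, 2 rose (Cyp51 and Agpat2), beside 10.4% of all genes, and 3 fell (Fdft1, Acaca and Agpat3), beside 10.7%. Ranges did not overlap for 4 members (12.9%; Hmgcs1, Cyp51, Acaca and Agpat3) and for 13.8% of all genes. The shares of members that passed rest on few genes and were not tested against those of all genes. In alternative runs 3 to 7 members passed at ZT0 and 5 to 7 at ZT12.

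**Figure D1:**
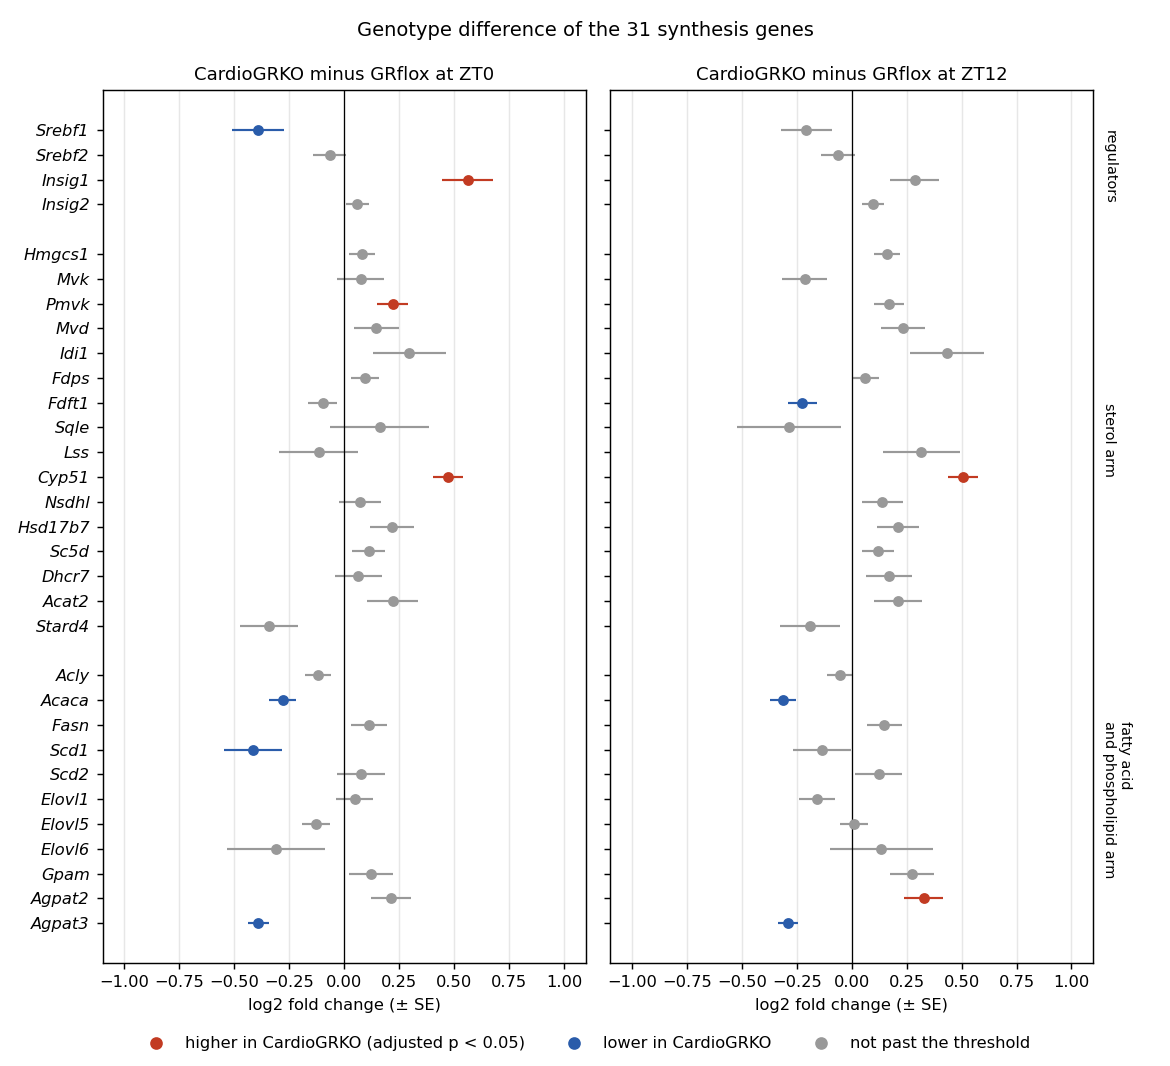
Log2 fold change of each of the 31 genes between CardioGRKO and GRflox (x axis, points with bars of ± 1 standard error), at ZT0 on the left and ZT12 on the right, by role. Cyp51, Acaca and Agpat3 stand past the threshold in both panels, Cyp51 on the higher side and Acaca and Agpat3 on the lower.

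Among the regulators Insig1, which holds the SREBP escort protein in the endoplasmic reticulum and helps degrade HMG-CoA reductase, had 17.0, 15.3, 16.2, 21.3 and 20.5 CPM in CardioGRKO libraries at ZT0, against 9.22, 12.6, 11.1, 13.1 and 14.9 CPM in GRflox. Every CardioGRKO library lay above every GRflox library. The rise was 1.48-fold, a log2 fold change of 0.56 ± 0.12 (edgeR adjusted p = 0.00155). At ZT12 Insig1 had 17.0 to 18.7 CPM in CardioGRKO and 12.9 to 18.6 CPM in GRflox. These ranges overlapped through GRflox replicate 5, and the difference of 0.29 ± 0.11 did not pass (edgeR adjusted p = 0.0735). It passed without that library (0.37, adjusted p = 0.0202), with only the 2 groups in the fit (0.29, adjusted p = 0.0321) and with the replicate block (0.29, adjusted p = 0.0320). No other alternative run brought it past the threshold. The change of the genotype difference between times was -0.28 ± 0.16 (edgeR adjusted p = 0.893), so the difference at ZT0 is not shown to be larger than that at ZT12.

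Srebf1, the gene of SREBP1, had 38.0, 27.1, 36.3, 38.6 and 38.9 CPM in CardioGRKO and 52.2, 45.0, 42.1, 52.7 and 41.5 CPM in GRflox at ZT0. The groups did not overlap, and Srebf1 fell by 0.39 ± 0.12 on the log2 scale (edgeR adjusted p = 0.0256). This call was lost without CardioGRKO replicate 2, the low library (-0.29, adjusted p = 0.0996), without GRflox replicate 1 (-0.34, adjusted p = 0.0732) and without GRflox replicate 4 (-0.35, adjusted p = 0.0666). At ZT12 the groups overlapped, with 30.4 to 38.3 CPM in CardioGRKO and 31.8 to 52.8 CPM in GRflox, a difference of -0.21 ± 0.12 (edgeR adjusted p = 0.227). Srebf2, the gene of SREBP2, differed by -0.07 ± 0.08 at ZT0 and -0.06 ± 0.08 at ZT12 between genotypes, and Insig2, a relative of Insig1, by 0.06 ± 0.05 and 0.10 ± 0.05. Neither passed at either time.

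In the sterol arm Cyp51, the lanosterol demethylase (chr5:4080674-4104697), was higher in CardioGRKO at both times. It had 16.8, 19.6, 17.7, 18.7 and 20.3 CPM in CardioGRKO at ZT0, against 12.1, 13.3, 13.8, 13.3 and 14.7 CPM in GRflox. At ZT12 CardioGRKO libraries had 18.7, 16.6, 18.4, 19.0 and 17.2 CPM, and GRflox libraries 11.6, 12.9, 13.0, 11.8 and 14.0 CPM. At neither time did the genotypes overlap. Cyp51 rose 1.39-fold at ZT0 (log2 0.47 ± 0.07, edgeR adjusted p = 3.72e-05) and 1.42-fold at ZT12 (0.51 ± 0.07, edgeR adjusted p = 8.10e-06). Exons of Akap9 overlap 4.22% of its exon bases on the opposite strand. Akap9 itself differed by 0.03 ± 0.07 at ZT0 and 0.04 ± 0.07 at ZT12, past the threshold at neither.

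Pmvk, the phosphomevalonate kinase, had 15.8 to 17.1 CPM in CardioGRKO and 13.2 to 14.7 CPM in GRflox at ZT0. The groups did not overlap and Pmvk rose by 0.22 ± 0.07 (edgeR adjusted p = 0.037), but leaving out any 1 library other than CardioGRKO replicate 2 took adjusted p to between 0.0509 and 0.0867. At ZT12 its difference was 0.17 ± 0.07 (edgeR adjusted p = 0.0872), and it passed at 0.21 or 0.22 without GRflox replicate 1 or 4 or CardioGRKO replicate 3. Fdft1, which joins farnesyl units into squalene, was the 1 sterol gene called lower at ZT12 (the values of Sqle, Mvk and Stard4 were also negative and did not pass), with 47.1, 53.4, 42.5, 52.3 and 57.9 CPM in CardioGRKO against 58.5, 64.2, 55.8, 53.6 and 63.3 CPM in GRflox. The ranges overlapped, and Fdft1 fell by 0.22 ± 0.07 (edgeR adjusted p = 0.0147). Without CardioGRKO replicate 1 or 3 at ZT12 that call was lost (-0.20 with adjusted p = 0.0503, and -0.17 with adjusted p = 0.0524). Exons of Ctsb, a lysosomal protease gene on the opposite strand, cover 20.9% of the exon bases of Fdft1. Ctsb rose at ZT0 (0.17 ± 0.05, edgeR adjusted p = 0.0354) and at ZT12 had a difference of 0.09 ± 0.05 that did not pass.

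Hmgcs1, the enzyme that makes HMG-CoA, had 50.1 to 56.7 CPM in CardioGRKO and 44.7 to 47.4 CPM in GRflox at ZT12. The ranges did not overlap, yet the difference of 0.16 ± 0.06 stayed on the other side of the threshold (edgeR adjusted p = 0.0568). It passed with DESeq2 (adjusted p = 0.0441), with upper-quartile scaling, with a stricter filter, with only the 2 groups in the fit and with the replicate block. With RLE scaling, with no filter on low counts, after thinning to the shallowest total and with any 1 library left out it did not pass. The remaining 12 sterol genes passed at neither time: Mvk, Mvd, Idi1, Fdps, Sqle, Lss, Nsdhl, Hsd17b7, Sc5d, Dhcr7, Acat2 and Stard4. Of these Idi1, the isopentenyl diphosphate isomerase, had the largest positive value, 0.43 ± 0.17 at ZT12 (edgeR adjusted p = 0.0687), and Stard4, a sterol carrier, the lowest, -0.34 ± 0.13 at ZT0 (edgeR adjusted p = 0.0843). Counts of Fdps, Acat2 and Idi1 may be shared with other loci. Of the exon bases of Fdps 77.4% are also annotated to Gm43738. Of the 75-base stretches of Acat2 transcripts 33.9% also occur in another gene, mostly Acat3, and of those of Idi1 23.6%, mostly Gm13502. Leaving out 1 library brought Mvd (0.30, without CardioGRKO replicate 1), Mvk (-0.32, without CardioGRKO replicate 2), Idi1 (0.50, without CardioGRKO replicate 3) and Hsd17b7 (0.28, without GRflox replicate 4) past the threshold at ZT12, and Hsd17b7 at ZT0 (0.31, without GRflox replicate 3).

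In the fatty acid and phospholipid arm Acaca, the acetyl-CoA carboxylase that makes cytosolic malonyl-CoA, had 13.2, 13.7, 15.1, 14.2 and 12.9 CPM in CardioGRKO at ZT0, against 16.0, 17.0, 17.6, 17.1 and 16.8 CPM in GRflox. At ZT12 all 5 CardioGRKO libraries lay between 14.3 and 14.6 CPM, below the 16.5 to 19.7 CPM of GRflox. Acaca fell by 0.28 ± 0.06 at ZT0 (edgeR adjusted p = 0.00269) and by 0.31 ± 0.06 at ZT12 (edgeR adjusted p = 0.000456). Of the 75-base stretches in its transcripts, 26.8% also occur in another annotated gene, mostly Gm5182.

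Agpat3, an acyltransferase of phosphatidic acid synthesis (chr10:78269174-78352497), had 172, 186, 192, 178 and 182 CPM in CardioGRKO and 254, 251, 237, 234 and 221 CPM in GRflox at ZT0. At ZT12 it had 155, 164, 155, 167 and 161 CPM in CardioGRKO against 188, 179, 206, 203 and 205 CPM in GRflox. The genotypes did not overlap at either time, and Agpat3 fell 1.31-fold at ZT0 (log2 -0.39 ± 0.05, edgeR adjusted p = 2.87e-06) and 1.22-fold at ZT12 (-0.29 ± 0.05, edgeR adjusted p = 7.26e-05). Agpat2, which carries out the same kind of step, went the other way, with 82.1, 67.2, 70.7, 92.4 and 69.9 CPM in CardioGRKO and 55.8, 55.8, 59.2, 65.4 and 69.8 CPM in GRflox at ZT12. GRflox replicate 5 reached into the CardioGRKO range, and Agpat2 rose by 0.33 ± 0.09 (edgeR adjusted p = 0.0092). Its difference at ZT0 was 0.21 ± 0.09 (edgeR adjusted p = 0.123).

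Scd1, a stearoyl-CoA desaturase, had 21.6 to 23.4 CPM in CardioGRKO at ZT0, against 21.3, 41.4, 33.3, 25.4 and 28.1 CPM in GRflox. The CardioGRKO libraries were close together and the GRflox libraries spread widely, with replicate 1 below all CardioGRKO libraries. Scd1 fell by 0.42 ± 0.13 (edgeR adjusted p = 0.0358), but this rested on single libraries: without GRflox replicate 2 the value was -0.27 (adjusted p = 0.147), without GRflox replicate 3 -0.38 (adjusted p = 0.0839), and without any 1 CardioGRKO replicate adjusted p was 0.0573 to 0.0838. At ZT12 the difference was -0.14 ± 0.13. Acly, Fasn, Scd2, Elovl1, Elovl5, Elovl6 and Gpam passed at neither time, with log2 fold changes between -0.31 for Elovl6 at ZT0 and 0.27 for Gpam at ZT12. Gpam at ZT12 had 361 to 419 CPM in CardioGRKO and 248 to 404 CPM in GRflox (edgeR adjusted p = 0.0527). It passed with DESeq2 (adjusted p = 0.0405) and without GRflox replicate 5 (0.37, adjusted p = 0.00481). It also passed with upper-quartile scaling, with no filter on low counts, with a stricter filter and after thinning to the shallowest total. Fasn at ZT12 was at 0.15 ± 0.08 and passed without GRflox replicate 3 (0.24, adjusted p = 0.0209).

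**Figure D2:**
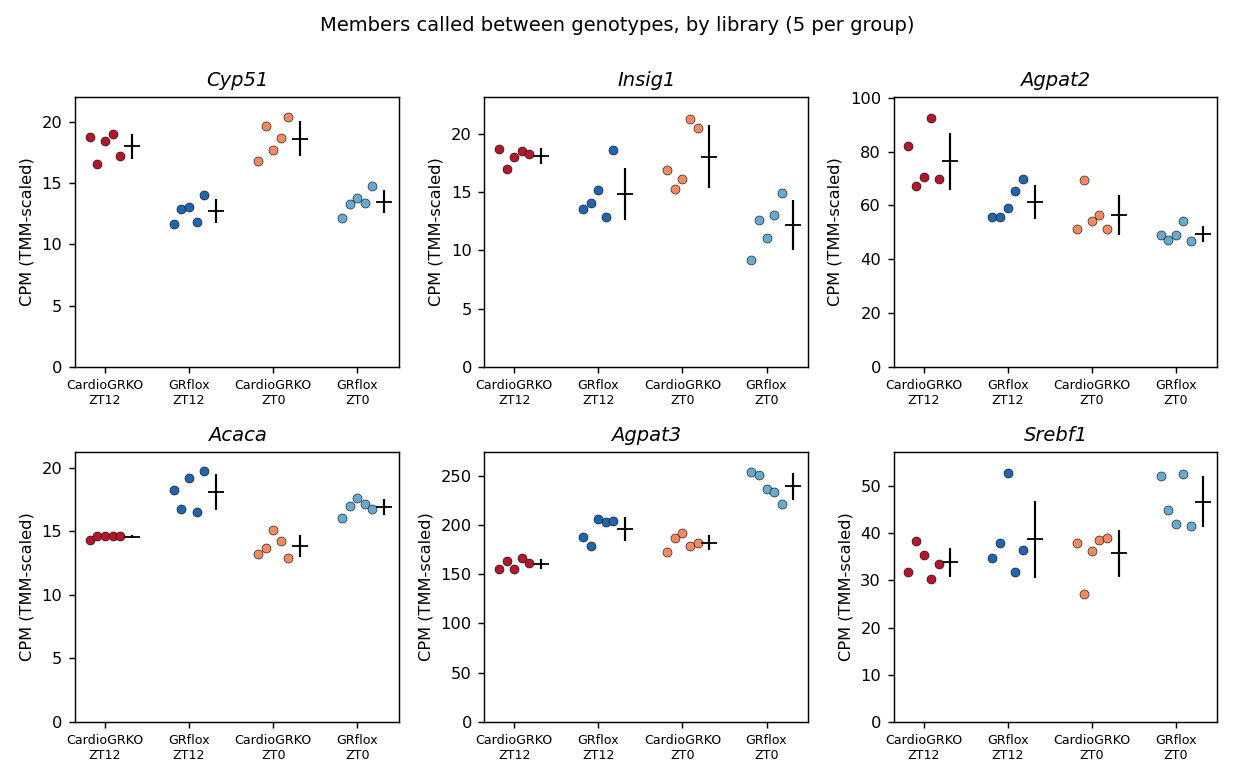
TMM-scaled CPM of 6 members in each library (points) with the group mean and SD (cross and bar), 5 libraries in each of the 4 groups. Cyp51 is higher and Acaca and Agpat3 are lower in CardioGRKO with no overlap at either time, while Insig1 and Srebf1 are apart at ZT0 and overlap at ZT12.

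By arm, the sterol genes had a median log2 fold change of 0.10 at ZT0, with 13 of 16 values positive, and 0.16 at ZT12, with 12 of 16 positive. The median of the 11 fatty acid and phospholipid genes was -0.12 at ZT0 and 0.01 at ZT12, and that of the 4 regulators was -0.00 and 0.02. Over all genes tested it was -0.01 at ZT0 and 0.00 at ZT12. Calls in the sterol arm were 2 higher and 0 lower at ZT0 and 1 higher and 1 lower at ZT12. That is 12.5% of the arm at each time, beside 14.7% and 21.1% of all genes. In the fatty acid and phospholipid arm they were 0 higher and 3 lower at ZT0 and 1 higher and 2 lower at ZT12, 27.3% of the arm at each time. These counts and medians describe lists chosen with results of these data known, and no test was made on them.

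For each library the mean level of an arm was averaged over its genes after each gene's log2 CPM had been centred on that gene's mean of the 20 libraries. The sterol mean minus the fatty acid and phospholipid mean was 0.13 ± 0.10 in CardioGRKO and -0.05 ± 0.10 in GRflox at ZT0 (SD, n = 5 each). At ZT12 it was 0.01 ± 0.10 in CardioGRKO and -0.09 ± 0.08 in GRflox. At ZT0 the libraries ranged from 0.05 to 0.29 in CardioGRKO and from -0.17 to 0.07 in GRflox, and at ZT12 from -0.08 to 0.18 in CardioGRKO and from -0.18 to 0.03 in GRflox. The ranges overlapped at both times. The sterol arm alone lay between -0.06 and 0.14 in CardioGRKO and between -0.13 and -0.06 in GRflox at ZT12.

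**Figure D3:**
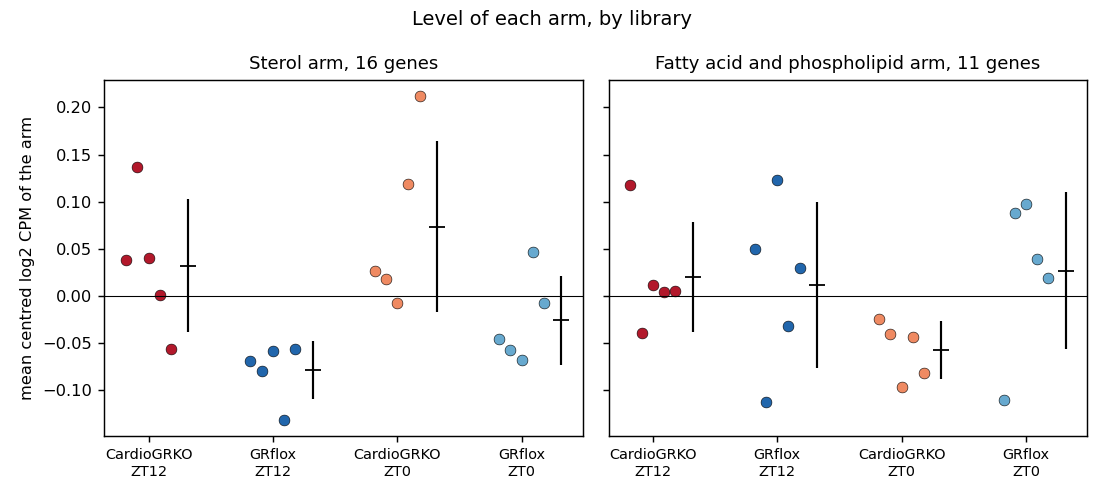
Mean level of the sterol arm (left) and of the fatty acid and phospholipid arm (right) in each library, as the mean over the arm's genes of log2 CPM centred on each gene's mean (y axis), with group mean and SD, 5 libraries per group. Group means of the sterol arm are 0.07 in CardioGRKO and -0.03 in GRflox at ZT0 and 0.03 in CardioGRKO and -0.08 in GRflox at ZT12, and the ranges of the genotypes overlap in both panels at both times.

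Some cell type markers were called between genotypes too. Over all genes 7.36% were called higher and 7.35% lower at ZT0, and 10.4% higher and 10.7% lower at ZT12. A single call in a list this short is not far from these shares. Of 8 cardiomyocyte markers 1 rose and 4 fell at ZT0, and 0 rose and 5 fell at ZT12, with summed levels of 89556 to 96139 CPM in CardioGRKO and 101033 to 105382 CPM in GRflox at ZT0, and 88171 to 101356 CPM in CardioGRKO and 103701 to 109163 CPM in GRflox at ZT12. Of 8 endothelial markers 5 fell at ZT0 and 4 at ZT12, with sums of 1227 to 1347 CPM in CardioGRKO and 1390 to 1530 CPM in GRflox at ZT0. At ZT12 those sums were 1003 to 1152 CPM in CardioGRKO and 1149 to 1256 CPM in GRflox. Of 7 pericyte and smooth muscle markers 3 fell at ZT0 (sums of 1013 to 1208 CPM in CardioGRKO and 1179 to 1318 CPM in GRflox) and 1 fell at ZT12 (997 to 1276 CPM in CardioGRKO and 1186 to 1392 CPM in GRflox). Of 12 adipocyte markers 8 could be tested, and of these 1 rose and 2 fell at ZT0 and 1 rose and 3 fell at ZT12. Cidea rose and the lipases Lipe and Pnpla2, which muscle also expresses, fell at both times. The third that fell at ZT12 was Cfd, the adipocyte protease adipsin, with 0.635 to 1.39 CPM in CardioGRKO and 0.392 to 4.33 CPM in GRflox (log2 -1.42 ± 0.46, edgeR adjusted p = 0.0273). Values were negative for 6 of the 8 tested at ZT0, with a median of -0.35, and for 7 of 8 at ZT12, with a median of -0.60. Of 7 Schwann cell markers 1 (Pmp22) rose at ZT0 and 0 passed at ZT12, and 0 of 7 fibroblast markers, 0 of 7 macrophage markers and 0 of the 1 erythroid marker tested passed between genotypes. Fewer cells of a type and less RNA per cell cannot be told apart in such tissue, and the part of these markers in the members' differences was not tested.

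Differences between times were measured within each genotype. The CardioGRKO and GRflox comparisons of time do not share libraries, but each shares its libraries with the comparisons of genotype. In CardioGRKO 7 members (22.6%) passed between ZT12 and ZT0, beside 9.17% of all genes: Fdft1, Fasn, Gpam and Agpat2 rose (4.42% of all genes were higher) and Srebf2, Hmgcs1 and Agpat3 fell (4.75% lower). In GRflox 11 members (35.5%) passed, beside 17.3% of all genes. Of these, 6 rose (Fdft1, Acat2, Fasn, Elovl1, Gpam and Agpat2), beside 8.13% of all genes, and 5 fell (Srebf2, Hmgcs1, Stard4, Elovl6 and Agpat3), beside 9.17%. All 7 members called in CardioGRKO were called in GRflox with the same sign. Ranges of the libraries did not overlap for 5 members in CardioGRKO (16.1%, against 7.11% of all genes) and for 7 in GRflox (22.6%, against 12.5%).

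**Figure D4:**
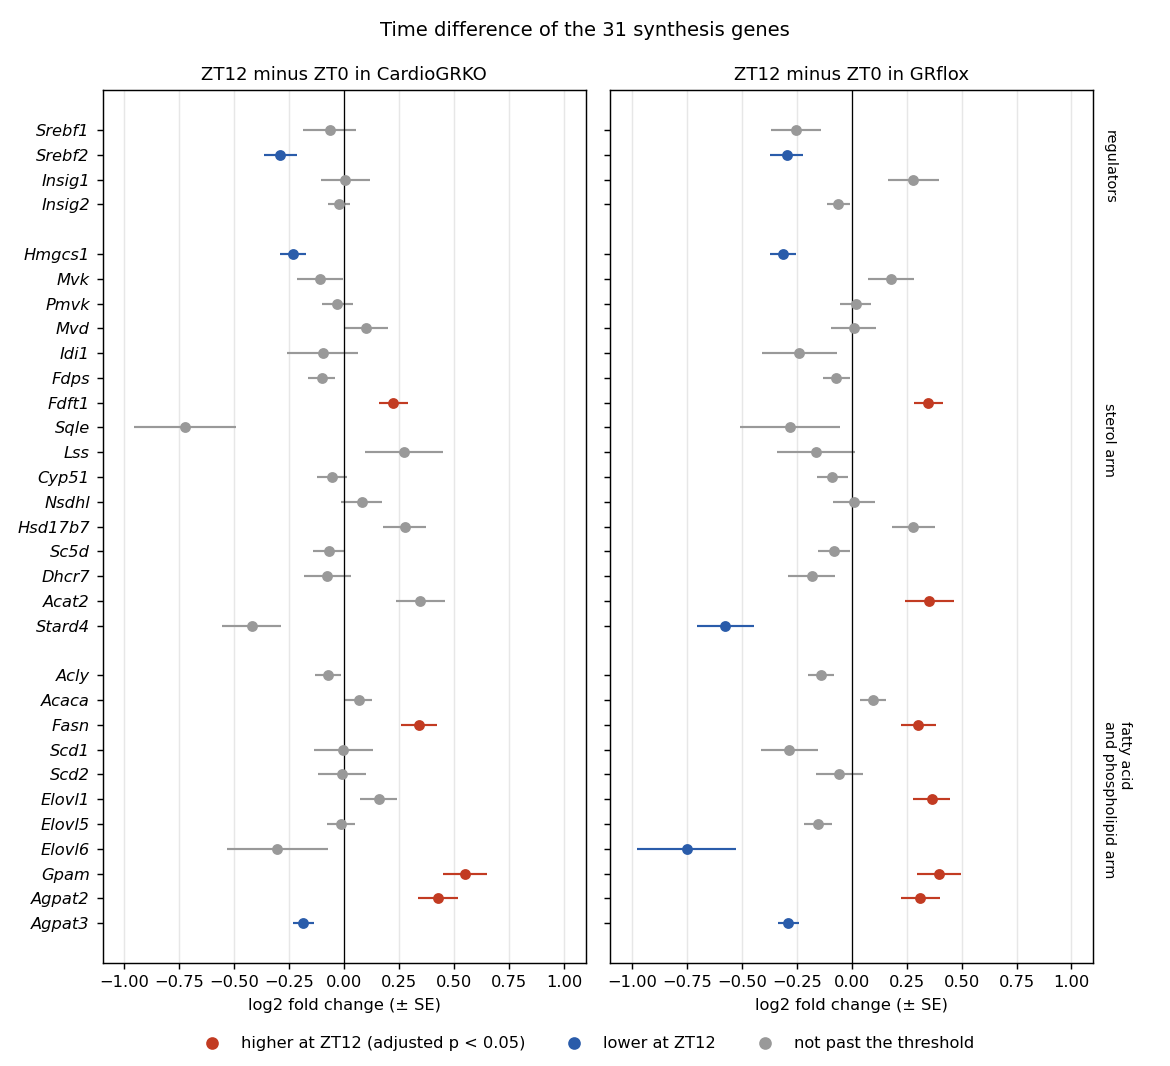
Log2 fold change of each of the 31 genes between ZT12 and ZT0 (x axis, points with bars of ± 1 standard error), in CardioGRKO on the left and GRflox on the right, by role. The 7 genes past the threshold in CardioGRKO are also past it, on the same side, in GRflox.

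Srebf2 was lower at ZT12 than at ZT0 in both genotypes. It had 32.5, 32.5, 27.8, 33.7 and 28.1 CPM at ZT12 against 39.7, 32.8, 40.3, 41.2 and 36.0 CPM at ZT0 in CardioGRKO, and 29.8 to 34.6 CPM at ZT12 against 35.0 to 44.9 CPM at ZT0 in GRflox. The times overlapped in CardioGRKO and did not overlap in GRflox. The fall was 0.29 ± 0.08 in CardioGRKO (edgeR adjusted p = 0.0162, or 0.0515 without CardioGRKO replicate 4 at ZT0, at -0.26) and 0.30 ± 0.08 in GRflox (edgeR adjusted p = 0.00773).

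Hmgcs1 followed the same direction. In CardioGRKO it had 50.1, 50.2, 56.7, 50.1 and 52.5 CPM at ZT12 and 51.7, 56.9, 62.4, 62.9 and 70.2 CPM at ZT0. In GRflox it had 47.4, 44.7, 47.3, 45.8 and 47.0 CPM at ZT12, against 55.8, 56.0, 62.1, 56.7 and 57.9 CPM at ZT0. The times overlapped in CardioGRKO and stood apart in GRflox. Hmgcs1 fell by 0.23 ± 0.06 in CardioGRKO (edgeR adjusted p = 0.0126) and by 0.31 ± 0.06 in GRflox (edgeR adjusted p = 0.000507). An antisense transcript, Gm48342, covers 16.0% of its exon bases, and the sources used here do not say whether counting was by strand. Stard4 had 2.18 to 3.74 CPM at ZT12 against 3.62 to 4.97 CPM at ZT0 in CardioGRKO, and 3.30 to 3.98 CPM at ZT12 against 4.68 to 6.06 CPM at ZT0 in GRflox. It fell by 0.57 ± 0.13 in GRflox (edgeR adjusted p = 0.00321). In CardioGRKO its value was -0.42 ± 0.14 (edgeR adjusted p = 0.0528), and it passed at -0.46 to -0.50 without CardioGRKO replicate 1 or 2 of either time, the shallowest library among them. With all libraries kept, Stard4 passed there with DESeq2 (adjusted p = 0.0383) and with a stricter filter.

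Fdft1 went up while Hmgcs1, several steps before it in the pathway, went down. It had 47.1, 53.4, 42.5, 52.3 and 57.9 CPM at ZT12 in CardioGRKO against 41.1 to 46.1 CPM at ZT0, and 53.6 to 64.2 CPM at ZT12 in GRflox against 44.9 to 47.4 CPM at ZT0. In GRflox the times did not overlap, and Fdft1 rose 1.27-fold (log2 0.35 ± 0.07, edgeR adjusted p = 0.00049). In CardioGRKO they overlapped and it rose by 0.22 ± 0.07 (edgeR adjusted p = 0.0358). The call in CardioGRKO did not hold without CardioGRKO replicates 2, 3, 4 or 5 at ZT0 or 2, 4 or 5 at ZT12, each left out in turn (0.17 to 0.22, adjusted p = 0.0661 to 0.134). Ctsb, whose exons cover 20.9% of the exon bases of Fdft1, averaged 769 CPM at ZT12 and 716 CPM at ZT0 in GRflox. Its time difference was 0.10 ± 0.05 in GRflox and 0.03 ± 0.05 in CardioGRKO, and neither passed. The part of Ctsb reads in the counts of Fdft1 was not tested. Acat2, the cytosolic acetoacetyl-CoA thiolase that begins the mevalonate route, rose by 0.35 ± 0.11 in GRflox (edgeR adjusted p = 0.0312), and its value in CardioGRKO was 0.35 ± 0.11 (edgeR adjusted p = 0.0522). The GRflox call of Acat2 was lost without replicates 3, 4 or 5 at ZT0 or 3 or 5 at ZT12 (0.30 to 0.35, adjusted p = 0.0589 to 0.108). Sqle, the squalene epoxidase, was at 0.667 to 1.34 CPM at ZT12 and 1.15 to 2.57 CPM at ZT0 in CardioGRKO, a difference of -0.72 ± 0.23 (edgeR adjusted p = 0.0507). Sqle passed at -0.79 to -0.83 without CardioGRKO replicate 1, 2 or 3 at ZT0 or 3 at ZT12. With all libraries kept, Sqle passed with DESeq2 (adjusted p = 0.0329), with RLE scaling and with a stricter filter. Acat2 in CardioGRKO passed without replicate 4 at ZT12, at 0.38, and with upper-quartile scaling.

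Gpam had the largest rise in CardioGRKO among the members called. Its libraries were at 385, 361, 385, 368 and 419 CPM at ZT12, against 246, 333, 251, 256 and 222 CPM at ZT0, without overlap. In GRflox the 292, 248, 330, 312 and 404 CPM at ZT12 overlapped the 224 to 268 CPM at ZT0 through replicate 2 at ZT12. Gpam rose 1.46-fold in CardioGRKO (log2 0.55 ± 0.10, edgeR adjusted p = 0.000742) and 1.32-fold in GRflox (0.40 ± 0.10, edgeR adjusted p = 0.00715).

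Fasn, the fatty acid synthase, had 64.5 to 68.8 CPM at ZT12 against 46.6 to 59.0 CPM at ZT0 in CardioGRKO, without overlap. In GRflox it had 54.1 to 73.5 CPM at ZT12 and 40.5 to 54.2 CPM at ZT0, with an overlap at the edge. Fasn rose by 0.34 ± 0.08 in CardioGRKO (edgeR adjusted p = 0.00773) and by 0.30 ± 0.08 in GRflox (edgeR adjusted p = 0.00982). Agpat2 rose by 0.43 ± 0.09 in CardioGRKO (edgeR adjusted p = 0.0028) and by 0.31 ± 0.09 in GRflox (edgeR adjusted p = 0.0171), the GRflox call being lost without replicate 5 at ZT12 (0.26, adjusted p = 0.0581). Agpat3 fell by 0.19 ± 0.05 in CardioGRKO (edgeR adjusted p = 0.0128) and by 0.29 ± 0.05 in GRflox (edgeR adjusted p = 0.000103), and its times did not overlap in either genotype. The acyltransferases Gpam and Agpat2 were thus higher at ZT12 and Agpat3 lower, in both genotypes.

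**Figure D5:**
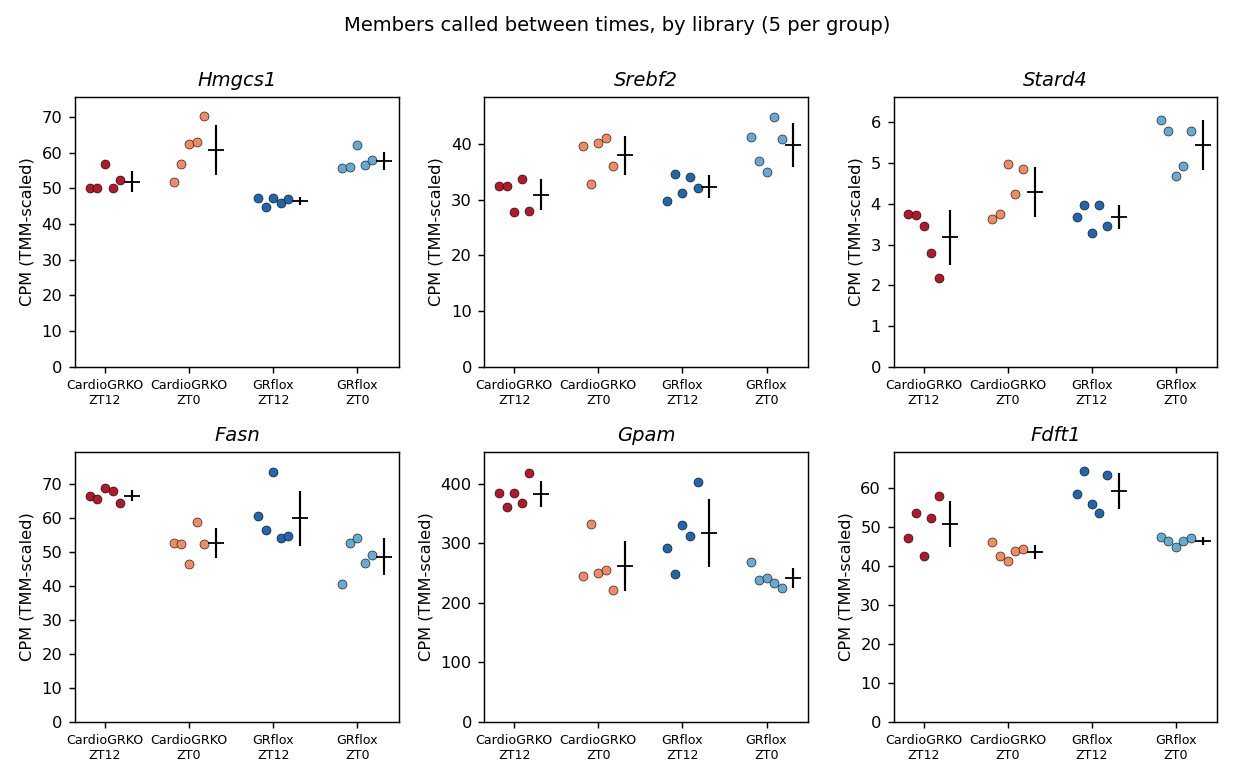
TMM-scaled CPM of 6 members in each library (points) with group mean and SD (cross and bar), ZT12 left of ZT0 within each genotype, 5 libraries per group. Hmgcs1, Srebf2 and Stard4 have lower means at ZT12, and Fasn, Gpam and Fdft1 higher means, in both genotypes; Stard4 passed the test in GRflox and not in CardioGRKO.

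Elongases moved in opposite directions in GRflox. Elovl1, an elongase of saturated very long chains, had 15.6 to 20.8 CPM at ZT12 and 12.2 to 14.4 CPM at ZT0, and rose by 0.36 ± 0.08 (edgeR adjusted p = 0.00317). Elovl6, which lengthens palmitate, had 0.715 to 1.26 CPM at ZT12 and 1.07 to 2.26 CPM at ZT0, and fell by 0.75 ± 0.22 (edgeR adjusted p = 0.0224). This came from 11 to 71 counts per library, and the call was lost without replicates 2 or 5 at ZT0 or 2 or 4 at ZT12 (-0.63 to -0.70, adjusted p = 0.0568 to 0.0788). In CardioGRKO the values were 0.16 ± 0.08 for Elovl1 and -0.30 ± 0.23 for Elovl6, and neither passed. Elovl5 differed between times by -0.01 ± 0.07 in CardioGRKO and -0.15 ± 0.06 in GRflox, and Acaca, which passed between genotypes, by 0.06 ± 0.06 and 0.10 ± 0.06. Cyp51 had -0.06 ± 0.07 in CardioGRKO and -0.09 ± 0.07 in GRflox between times, past the threshold in neither. In GRflox 5 other members passed when 1 library was left out: Hsd17b7 (0.37 without replicate 3 at ZT0, 0.35 without replicate 2 at ZT12), Insig1 (0.37 without replicate 5 at ZT0), Scd1 (-0.39 without replicate 1 at ZT0), Srebf1 (-0.40 without replicate 3 at ZT12) and Elovl5 (-0.19 without replicate 1 at ZT12). With all libraries kept, Hsd17b7 also passed with DESeq2 and with upper-quartile scaling, and Insig1 with the replicate block.

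Between times the sterol genes had medians of -0.06 in CardioGRKO and -0.08 in GRflox, and the fatty acid and phospholipid genes -0.00 in CardioGRKO and -0.06 in GRflox, beside 0.00 and 0.01 over all genes. The median size of the time difference, regardless of sign, was 0.10 over the members in CardioGRKO and 0.25 in GRflox, beside 0.10 and 0.12 over all genes. Over all genes 4.42% were called higher and 4.75% lower at ZT12 in CardioGRKO, and 8.13% higher and 9.17% lower in GRflox. Beside these shares, 4 of the 8 endothelial markers fell at ZT12 in CardioGRKO and 5 in GRflox. Of the 8 adipocyte markers tested 1 rose and 0 fell in CardioGRKO, with 8 positive values and a median of 0.26, and 2 rose and 0 fell in GRflox, with 7 positive values and a median of 0.30. The adipocyte-restricted sum was 2.42 CPM at ZT12 and 1.59 CPM at ZT0 in CardioGRKO, and 5.13 CPM at ZT12 and 3.02 CPM at ZT0 in GRflox. The libraries of the genotypes overlapped in this sum at both times. Its part in the differences of Fasn, Gpam and Agpat2 was not tested. In CardioGRKO 2 pericyte and smooth muscle markers and 1 Schwann cell marker rose and 1 cardiomyocyte marker fell. In GRflox 1 cardiomyocyte, 1 macrophage and 1 Schwann cell marker rose and 1 fibroblast marker fell. The part of these markers in the time differences was not tested.

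Whether the genotype difference changed between times was tested for each member. No member passed, beside 0.186% of all genes (0.0643% higher and 0.121% lower). With edgeR 0 of 31 members had an unadjusted p under 0.05, against 5.99% of all genes, and DESeq2 called 0 members too. The smallest adjusted p was 0.860. The values ran from -0.44 ± 0.33 for Sqle to 0.45 ± 0.32 for Elovl6, both genes of low counts with wide errors, while for Cyp51 the value was 0.03 ± 0.10 and for Agpat3 0.10 ± 0.07. For members called at only 1 time, the genotype difference is therefore not shown to change between times. For members called in only 1 genotype, the time difference is not shown to differ between genotypes.

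Other genes of sterol synthesis, SREBP processing and uptake were counted from a list of 19, of which 18 were tested. At each time 2 rose and 0 fell in CardioGRKO against GRflox, with Tmem97 among them at both. That is 11.1% of those tested, beside 14.7% of all genes at ZT0 and 21.1% at ZT12. Tmem97, a sterol-binding membrane protein that interacts with NPC1, had 8.73, 5.82, 5.01, 5.97 and 6.72 CPM in CardioGRKO and 3.72, 3.29, 3.04, 4.35 and 3.85 CPM in GRflox at ZT0. The groups did not overlap, and Tmem97 rose by 0.77 ± 0.13 at ZT0 and 0.70 ± 0.12 at ZT12 (edgeR adjusted p = 0.000181 and 0.000199). Between times 1 rose and 1 fell in CardioGRKO, and 1 rose and 4 fell in GRflox (11.1% and 27.8% of those tested, beside 9.17% and 17.3% of all genes). Npc1, which exports cholesterol from lysosomes, rose by 0.51 ± 0.09 in CardioGRKO and 0.61 ± 0.08 in GRflox. Msmo1, a sterol oxidase, fell by 0.32 ± 0.09 in GRflox, and Lbr, which has sterol reductase activity, fell by 0.25 ± 0.07 in GRflox. Neither passed in CardioGRKO, and neither passed the test of the interaction.

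The LXR proteins are sterol sensors that favour cholesterol efflux and SREBP1 expression, and of 9 genes of that pathway 3 fell and 0 rose in CardioGRKO at each time, beside 7.35% of all genes lower at ZT0 and 10.7% at ZT12. Nr1h3, which encodes an LXR, fell by 0.40 ± 0.13 at ZT0 and 0.52 ± 0.13 at ZT12. Its partner Rxra fell by 0.21 ± 0.05 and 0.22 ± 0.05, and Lpcat3, a phospholipid acyltransferase known as an LXR target, by 0.23 ± 0.06 and 0.29 ± 0.06. Between times 2 rose and 0 fell in each genotype, beside 4.42% of all genes higher in CardioGRKO and 8.13% in GRflox. These were Abca1, a cholesterol efflux transporter, with 0.55 ± 0.11 in CardioGRKO and 0.58 ± 0.10 in GRflox, and Mylip, a ubiquitin ligase known as an LXR target, with 0.60 ± 0.11 and 0.63 ± 0.10.

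Of 32 further genes of fatty acid, triglyceride and phospholipid synthesis 29 were tested. In CardioGRKO 3 rose and 5 fell at ZT0, and 2 rose and 6 fell at ZT12 (27.6% of those tested at each time, beside 14.7% and 21.1% of all genes). Acacb, the carboxylase isoform at mitochondria whose product restrains fatty acid entry, averaged 533 CPM in CardioGRKO and 664 CPM in GRflox at ZT0, and 541 CPM in CardioGRKO against 690 CPM in GRflox at ZT12. It fell by 0.32 ± 0.05 at ZT0 and 0.35 ± 0.05 at ZT12, beside its relative Acaca. Lpin1, a phosphatidate phosphatase, fell by 0.38 ± 0.06 and 0.59 ± 0.06, Dgat2, which makes triglyceride, by 0.27 ± 0.08 and 0.51 ± 0.08, and Mlxipl, the glucose-responsive factor ChREBP, by 0.45 ± 0.09 and 0.43 ± 0.09. Fads1, a desaturase of polyunsaturated chains, rose by 0.22 ± 0.06 and 0.25 ± 0.06, and Gpat3, an acyltransferase of the endoplasmic reticulum, by 0.35 ± 0.08 and 0.44 ± 0.08. Between times 3 rose and 5 fell in CardioGRKO, and 5 rose and 4 fell in GRflox (27.6% and 31% of those tested, beside 9.17% and 17.3% of all genes). Mid1ip1, a protein that activates acetyl-CoA carboxylase, rose by 0.84 ± 0.11 in CardioGRKO and 1.03 ± 0.11 in GRflox, and Dgat2 by 0.36 ± 0.08 and 0.60 ± 0.08. Pnpla3, a lipid droplet protein, fell by 0.99 ± 0.22 in CardioGRKO and 1.15 ± 0.21 in GRflox.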

How the data were processed

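The authors deposited whole-number read counts per gene, 1 table per library, not normalized. STAR 2.5.1, featureCounts of Subread 1.5.1 and the build mm10 are named in the submitters' processing notes, as is DESeq2 1.38.3; strand use, treatment of shared reads and annotation release were details not given in the sources used here. Per the labels' protocols, TruSeq poly(A) libraries were read in pairs of 75 bases.

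Lines were summed by Entrez identifier to 24059 genes. The 14007 kept by filterByExpr (minimum count 10, minimum total 15) were tested in edgeR 4.0.16 under R 4.3.3 by quasi-likelihood: TMM scaling, 4 group means over all 20 libraries, Benjamini-Hochberg adjustment over all genes within each comparison, threshold 0.05. Standard errors of log2 fold changes were obtained by dividing each change by the root of its F statistic, with 5 libraries per group. Levels per kb use the union of exons in GENCODE vM21, which may differ from the authors' annotation. DESeq2 1.42.0 was an alternative. On simulated counts of the ZT0 comparison the test recovered 79% of 100 genes changed by 0.5 and 94% of 100 changed by 1 (log2). It also called 13 unchanged genes, 6.99% of its calls. Changes smaller than 0.5, as most of the members had, were not simulated. Replicates of a group differed by more than sampling noise.

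The 31 members and the other lists were chosen with earlier results of these data known. All members may be named with values; of the other pathway genes and markers, those past the threshold in at least 1 comparison. Full values per library are given for some of the members that passed. The others are given as ranges or as log2 fold changes only. Some genes counted in the list of sterol synthesis, processing and uptake are not reported here by name.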

Additional observations from a re-analysis of the deposited data

Results flagged for a closer look

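In 132 groups of 5 libraries examined (31 members and 2 arm levels in 4 groups), the highest or lowest library stood apart from the others in 6, by a gap larger, relative to the group's range, than Dixon's 95% critical value; chance gives about 1 in 20. Srebf1 was at 27.08 CPM in replicate 2 of CardioGRKO at ZT0, against 36.3 to 38.9 CPM in the others, and at 52.85 CPM in replicate 3 of GRflox at ZT12, against 31.8 to 37.9 CPM. Its lower level in CardioGRKO at ZT0 did not pass the threshold without that low library. Sc5d, the lathosterol desaturase, was at 21.71 CPM in replicate 2 of CardioGRKO at ZT12, where the others had 16.8 to 17.98 CPM. Acaca was at 14.34 CPM in replicate 1 of CardioGRKO at ZT12, with the others all at 14.6 CPM. Pmvk was at 13.25 CPM in replicate 1 of GRflox at ZT0, below the 14.3 to 14.7 CPM of the others. Sqle was at 1.618 CPM in replicate 3 of GRflox at ZT12, above 1.21 to 1.31 CPM.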

How the results depend on the processing

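Of 30 called member results 17 kept their call in every alternative run and 13 lost it in at least 1; 0 of the called values reversed. The members called were 7, 5, 11, 7 and 0 for genotype at ZT0, genotype at ZT12, time in GRflox, time in CardioGRKO and the interaction. With single libraries left out these counts were 5 to 6, 5 to 7, 9 to 12, 5 to 9 and 0. Thinning every library to the total of the shallowest, a single seeded draw, gave 3 at ZT0 between genotypes and 3 for time in CardioGRKO; over all genes it gave 1310 against 2060, 1902 against 2952, 1534 against 2423 and 752 against 1284 calls in the first 4 comparisons, so depth limits the weaker calls. At that depth Acaca at ZT0, Stard4 in GRflox, and Srebf2, Hmgcs1 and Agpat3 for time in CardioGRKO were among those not called, and with only the 2 groups in the fit Hmgcs1 for time in CardioGRKO had an adjusted p of 0.052. For the interaction over all genes, 26 in the main test, DESeq2 gave 69 and leave-one-out fits 16 to 33. No other scaling shifted the median of all genes by 0.1 or more.

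Replicate numbers gave no clear pairing over all groups: same-numbered libraries of different groups had correlations of -0.27 to 0.23 (median 0.03, 8 of 30 over 0.1). Of 20 libraries 7 correlated best with their own number. Between genotypes at ZT12 the correlations of same-numbered libraries were all positive, at 0.09, 0.23, 0.20, 0.13 and 0.01. Whether those 2 groups are paired is not settled. With the replicate block 7, 7, 12, 7 and 0 members were called; Insig1 and Hmgcs1 at ZT12 between genotypes and Insig1 for time in GRflox were added.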
